A study of Homo sapiens with 6 samples.

Results

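A set of 10 genes that protect or lengthen chromosome ends was followed in SW1736, a line of human anaplastic thyroid cancer cells, by their short RNA fragments. They were the 10 rows of the 20288 in the deposited protein-coding table whose symbols are TERF1, TERF2, TERF2IP, TINF2, POT1 and ACD (the shelterin complex), TERT and DKC1 (telomerase), and TNKS and TNKS2 (the tankyrases). SW1736 cells were kept for 72 h at 21% O2 (normoxia, n = 3 libraries) or at 2% O2 (hypoxia, n = 3 libraries), and total RNA of whole cultures was made into small RNA libraries by a ligation-free tailing method (CATS). All libraries came from the same line, and the labels do not say whether the 3 replicates of a group were separate cultures, so standard deviations and tests measure only the spread between these libraries. A count is a read of a short fragment aligned to the 1 transcript listed for the gene, so it is not a count of intact mRNAs. The set was chosen by a measured value, the call of TERF1 as lower in hypoxia in these 6 libraries, and its other genes by their role beside TERF1. The comparison of the 10 genes is therefore a description and not independent evidence of a response. Their calls are named as the values that chose them, and no p-value of theirs is printed.

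Human telomeres are long arrays of a short G-rich repeat that ends in a single-stranded overhang. Shelterin coats them and keeps the DNA damage machinery from treating a chromosome end as a break, while telomerase, a reverse transcriptase that carries its own RNA template, adds new repeats. The tankyrases release TERF1 from telomeres by modifying it with poly(ADP-ribose), which opens the end to telomerase.

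The libraries held 1469151 to 1781753 counts each over the deposited miRNA and protein-coding tables, and 1 count corresponded to 0.577 to 0.695 normalized CPM (counts relative to the library total after TMM scaling, which corrects for differences in library composition). The 10 genes together had 823 to 1150 counts per library, 0.0654% to 0.0853% of the protein-coding counts. Of 6 known HIF targets (CA9, NDRG1, BNIP3, LDHA, PGK1 and VEGFA), 5 were called higher in the hypoxic libraries at an adjusted p under 0.05, and VEGFA stood at a log2 change of 0.93 (edgeR, adjusted p = 0.131). Of the thyroid markers, PAX8 and FOXE1, transcription factors of the follicular cell, had 129 ± 17.3 and 30.8 ± 8.99 normalized CPM in normoxia (SD, n = 3 each). The differentiation genes TG, TSHR and SLC5A5 had only 4, 5 and 14 counts over the 3 normoxic libraries, and NKX2-1 had 20. Of the leukocyte markers, CD3E had 1 count over the normoxic and 2 over the hypoxic libraries, and PTPRC 18 and 9. CD68, the third of them, had 31 and 54, with each hypoxic library above each normoxic one (log2 change 0.75; edgeR, adjusted p = 0.510). The endothelial markers PECAM1, CDH5 and VWF had 39, 51 and 10 counts in normoxia and 40, 42 and 10 in hypoxia, and their groups overlapped. The part of other cell types in the results was not tested.

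TERF1, which binds the double-stranded telomere repeat as a homodimer and limits telomere length, was the shelterin gene with the most fragments. In the order of the replicate numbers, used throughout, its counts were 298, 207 and 313 for normoxia and 188, 221 and 147 for hypoxia. In normalized CPM these were 193, 133 and 199 in normoxia and 115, 127 and 102 in hypoxia. Each hypoxic library lay below each normoxic one, but the gap was narrow between hypoxia replicate 2, the highest of its group, and normoxia replicate 2, the lowest of its own. The means were 175 ± 36.4 for normoxia and 115 ± 12.6 for hypoxia (SD, n = 3 each), and the fitted log2 fold change (log2 change) was -0.60 (standard error 0.134), or 65.9% of the normoxic level. In a culture sampled as a whole, fewer cells with the RNA and less RNA per cell cannot be told apart.

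**Figure D1:**
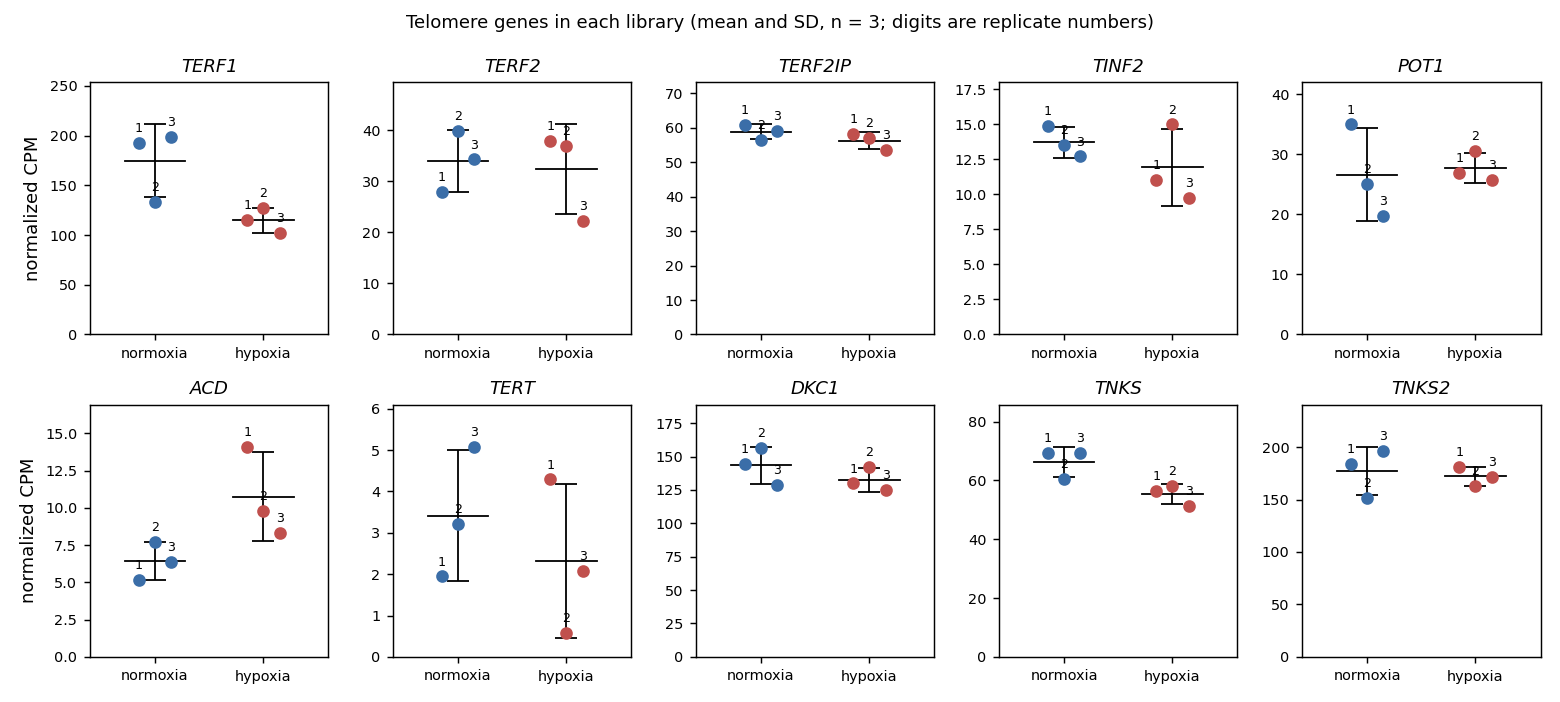
Normalized CPM of the 10 genes in each library (vertical axes start at 0 and differ between panels). Points are libraries with their replicate numbers, and bars are means with SD (n = 3 per group). TERF1 sits at 102 to 127 in hypoxia and 133 to 199 in normoxia, and for TERF2, TERF2IP, TINF2, POT1, TERT, DKC1 and TNKS2 the groups overlap.

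Of the 9 members with enough counts to be tested, TERF1 was the only one past an adjusted p of 0.05 in the edgeR fit, and it is the call for which the list was drawn. Over all 11082 protein-coding features tested, 0.758% were past that threshold (0.162% lower and 0.596% higher), and nothing is read from the members' count. Groups did not overlap for 3 of the 9 members tested, against 15.3% of all features tested. TERF1 and TNKS lay lower in every hypoxic library (7.01% of all features) and ACD higher (8.27%). The median log2 fold change was -0.06 over the 9 members, with 7 below 0, and -0.01 over all protein-coding features tested, of which 51.0% were below 0.

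The TERF1 call was lost with nearly any library fewer. When the libraries were left out singly, it was kept in 1 of 6 fits, the one without normoxia replicate 2, where the log2 fold change was -0.77. Without normoxia replicates 1 or 3 it was -0.53 and -0.50, and without hypoxia replicates 1, 2 or 3 it was -0.61, -0.69 and -0.53, none of them called. DESeq2, a second test on the same counts, gave -0.61 and made no call. The direction was the same in all 14 alternative fits. TERF1 is not in the paper's own list of transcripts that differed between hypoxia and normoxia in SW1736, called with edgeR and limma.

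**Figure D2:**
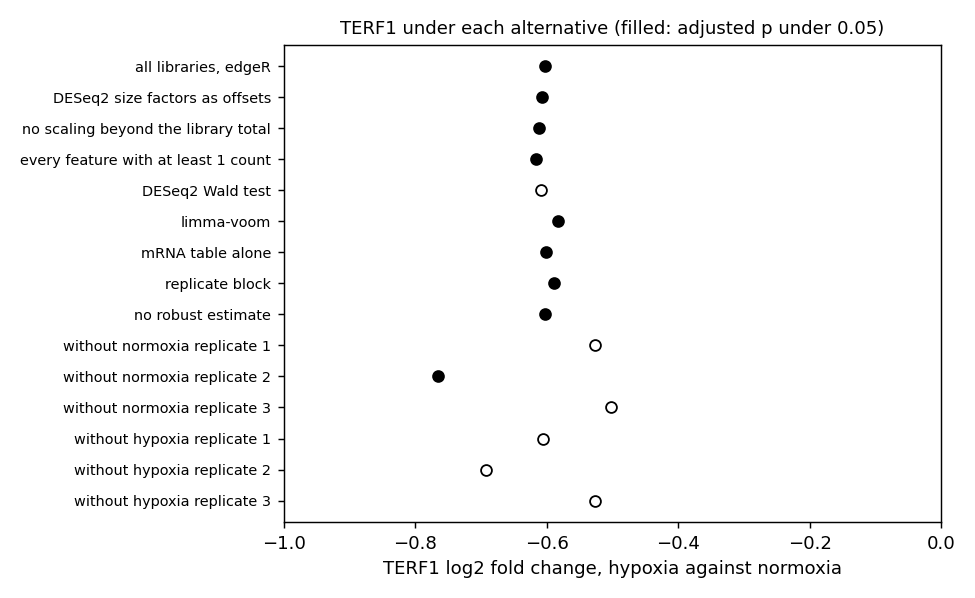
Fitted log2 fold change of TERF1, hypoxia against normoxia (horizontal axis), in the fit of all 6 libraries by edgeR and in 14 alternatives (rows). Filled points are past an adjusted p of 0.05 and open ones are not, and all values lie between -0.77 and -0.50.

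TERF1 is also the member whose reads are least certain to be its own. The genome carries processed pseudogenes of TERF1, which are near-copies of its spliced mRNA. Of the 1233 stretches of 25 bases in the coding part of the counted TERF1 transcript, 77.2% occur unchanged in a transcript of another gene in GENCODE 44, and 76.9% in a transcript of 1 of 8 pseudogenes. The closest, TERF1P5, holds 53.4%. The authors left reads of pseudogenes out of their counts. How a short read that fits both TERF1 and a pseudogene was assigned is not given in the sources used here. For TERF2, TINF2, POT1, ACD, TERT, TNKS and TNKS2 the share was 0%, for DKC1 0.132% and for TERF2IP 6.82%. For ACD and DKC1 the representative transcript of GENCODE 44 was used, because no coding part of the counted one is annotated there. TNKS and TNKS2 thus share no such stretch, although they encode closely related enzymes. The counted TERF1 transcript has 1257 coding bases, against 1317 in the transcript that GENCODE 44 takes as representative. The part of the pseudogenes in the TERF1 difference was not tested.

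TERF2, the paralog of TERF1 that also binds the double-stranded repeat and is needed to form the protective t-loop, had 27.9, 39.8 and 34.3 normalized CPM at 21% O2 and 38.0, 36.9 and 22.2 at 2% O2. The groups overlapped, with the highest value in normoxia replicate 2 and the lowest in hypoxia replicate 3. Its log2 change was -0.06 (standard error 0.220), and it was -0.18 without hypoxia replicate 1 and 0.14 without hypoxia replicate 3. TERF1 had 3.34 to 6.93 counts for each TERF2 count in normoxia and 3.03 to 4.59 in hypoxia, so the ratio overlapped between the groups.

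TERF2IP (RAP1), which reaches telomeres by binding TERF2, was the steadiest shelterin gene. It had 60.9, 56.6 and 59.1 normalized CPM at 21% O2 and 58.2, 57.1 and 53.5 at 2% O2, a spread of 3.71% and 4.37% of the group means (SD over mean, n = 3 each). Its log2 change was -0.06 (standard error 0.160). Set against TERF2IP in the same library, TERF1 had 2.35 to 3.37 counts per TERF2IP count in normoxia and 1.91 to 2.23 in hypoxia. These ranges did not overlap, but the ratio restates the TERF1 value that chose the set. Against DKC1 the TERF1 ratio was 0.848 to 1.54 in normoxia and 0.817 to 0.895 in hypoxia, which overlapped. Against TNKS2 it was 0.877 to 1.05 in normoxia and 0.595 to 0.781 in hypoxia, which did not.

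TINF2 (TIN2) is the hub that ties TERF1 and TERF2 to the rest of shelterin. It had 14.9, 13.5 and 12.7 normalized CPM at 21% O2 and 11.0, 15.0 and 9.73 at 2% O2. The highest value of all 6 belonged to a hypoxic library, replicate 2, and the lowest also to a hypoxic one, replicate 3. With 14 to 26 counts per library its standard error was wide, and the log2 fold change was -0.19 (standard error 0.316).

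POT1, which binds the single-stranded overhang, had 35.0, 25.1 and 19.7 normalized CPM at 21% O2 and 27.0, 30.6 and 25.7 at 2% O2. The hypoxic libraries all fell inside the normoxic range. Its log2 change was 0.07 (standard error 0.235), and it was 0.31 without normoxia replicate 1 and -0.11 without normoxia replicate 3.

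ACD (TPP1) pairs with POT1 and recruits telomerase. It had 8, 12 and 10 counts in normoxia and 23, 17 and 12 in hypoxia, or 5.18, 7.71 and 6.35 against 14.1, 9.80 and 8.34 normalized CPM. Each hypoxic library was above each normoxic one, with the larger part of the difference in hypoxia replicate 1. The log2 change was 0.74 (standard error 0.399), the highest of the 9, and it was not past the threshold. It was 0.50 without hypoxia replicate 1 and between 0.50 and 0.89 over all alternatives, none of which called it.

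HIF proteins bind DNA at a short core, ACGTG or GCGTG, and windows of the members' promoters are shown for where that core stands. RefSeq promoters (GRCh38.p14, 250 bases before to 50 after the start site) were matched for 7 of the 10 members. TERF1, TERF2 and TNKS had no match, so the promoter of the called member was not searched. Either core, on either strand, occurs in 6 of the 7 and in 48.4% of all 35116 promoters, and ACGTG alone in 3 of the 7 and in 21.4%. A member counts if any of its promoters holds the core, while the background counts each promoter singly. These shares are of unlike units, so nothing is read from them. TERT is in both counts of members, and its promoter windows are not shown. The windows of ACD, the member with the highest log2 fold change, and of TNKS2, with a log2 fold change near 0, both hold ACGTG. In the lines that follow it is in capitals.
ACD, minus strand, chr16:67660315-67660369, 84 bases before the start site: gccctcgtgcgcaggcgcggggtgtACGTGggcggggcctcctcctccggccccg
TNKS2, plus strand, chr10:91798355-91798409, 46 bases before the start site: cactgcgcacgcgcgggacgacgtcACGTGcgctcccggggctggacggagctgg
In TNKS2 the core is part of the palindrome CACGTG and is thus read on both strands, and GCGTG also occurs on the other strand, 64 bases before the start site. In the ACD window ACGTG is read on 1 strand. A match of these letters is a description of the sequence and not a bound site.

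**Figure D3:**
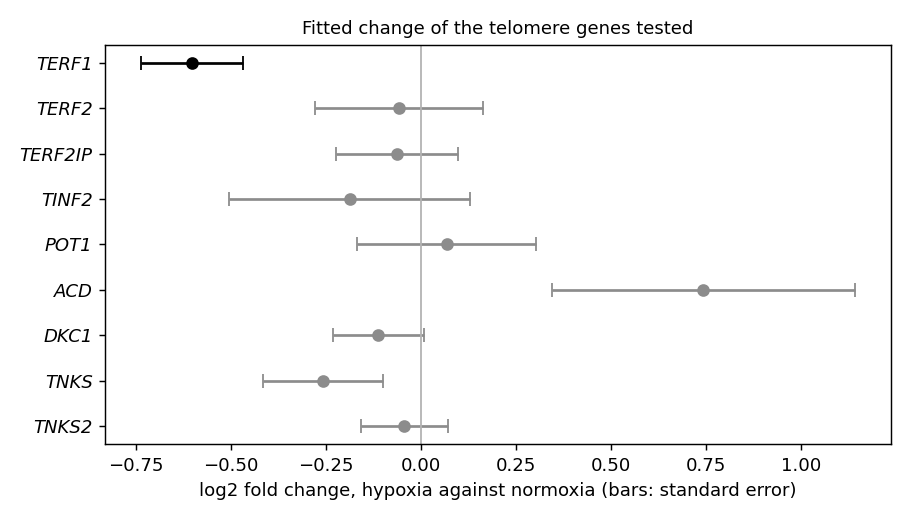
Fitted log2 fold change of the 9 members tested (horizontal axis, hypoxia against normoxia) with its standard error. TERF1 at -0.60 is drawn in black as past an adjusted p of 0.05, the other 8 in grey as not past it, from TNKS at -0.26 to ACD at 0.74.

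Of the counts of the shelterin genes, the shares of TERF1, ACD and TERF2IP did not overlap between the groups. TERF1 took 57.3%, 48.3% and 60.1% of the counts of the 6 shelterin genes in normoxia and 43.7%, 46.0% and 46.1% in hypoxia. ACD took 1.54%, 2.80% and 1.92% in normoxia and 5.35%, 3.54% and 3.76% in hypoxia. The shares of the 6 genes add to a whole, so a lower share of TERF1 raises the others. The TERF1 share also restates the value that chose the set. TERF2IP took 18.1%, 20.5% and 17.9% in normoxia and 22.1%, 20.6% and 24.1% in hypoxia, so that replicate 2 of both groups nearly met. TERF2 took 11.0 ± 3.14% and 12.6 ± 2.29% (SD, n = 3 each). The 6 genes together had 314 ± 33.7 normalized CPM at 21% O2 and 254 ± 28.7 at 2% O2. Without TERF1 the sum of the other 5 was 139.5 ± 6.48 for normoxia and 139.1 ± 16.9 for hypoxia (SD, n = 3 each), a difference far below the spread between libraries.

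**Figure D4:**
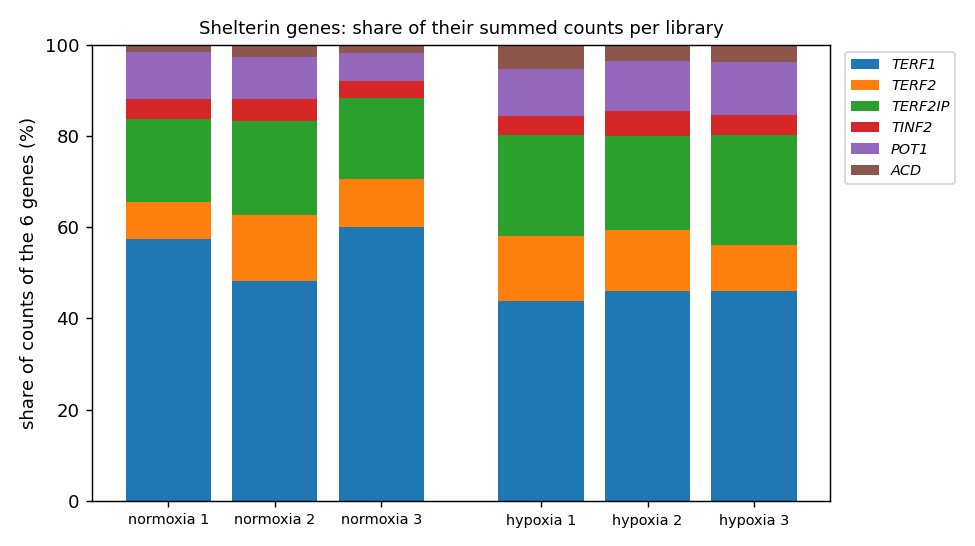
Share of each shelterin gene (%, vertical axis) in the summed counts of the 6 shelterin genes, 1 bar per library. TERF1 takes 48.3% to 60.1% of the counts in the normoxic libraries and 43.7% to 46.1% in the hypoxic ones.

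TERT, the catalytic subunit of telomerase, was near the floor of detection. It had 3, 5 and 8 counts in normoxia and 7, 1 and 3 in hypoxia, too few to be tested. The groups overlapped, and hypoxia replicate 2 held the lowest value. After scaling, the ratio of the summed 11 hypoxic to 16 normoxic counts was 0.669, with a 95% exact binomial interval of 0.281 to 1.53 that covers counting error only. Ratios within that interval are compatible with the summed counts, and the smallest difference detectable at this depth was not computed.

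DKC1 (dyskerin), which stabilizes the telomerase RNA and also guides pseudouridylation of ribosomal RNA, had 144, 157 and 129 normalized CPM at 21% O2 and 129.9, 142 and 125 at 2% O2. Of the hypoxic values 2 lay inside the normoxic range and 1 below it. Its log2 change was -0.11 (standard error 0.120). GENCODE 44 annotates the transcript counted for DKC1 as a retained-intron transcript, without a coding region.

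TNKS and TNKS2, the tankyrases, also act in Wnt signaling through axin. TNKS had 69.3, 60.4 and 69.2 normalized CPM at 21% O2 and 56.4, 58.2 and 51.4 at 2% O2, so that all hypoxic libraries were below all normoxic ones. Its log2 change was -0.26 (standard error 0.158), not past the threshold and between -0.32 and -0.21 in every alternative. TNKS2 had 184, 152 and 196 normalized CPM at 21% O2 and 181, 163 and 172 at 2% O2, with the hypoxic libraries inside the normoxic range. Its log2 change was -0.04 (standard error 0.115). The ratio of TNKS2 to TNKS counts was 2.51 to 2.83 in normoxia and 2.80 to 3.34 in hypoxia, which overlapped between hypoxia replicate 2 and normoxia replicate 3.

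Levels can be set beside each other between genes only per length. Per kb of coding sequence of the counted transcript, the normoxic level was 139 ± 29.0 normalized CPM for TERF1, 50.7 ± 6.58 for TNKS2, 49.2 ± 1.82 for TERF2IP and 20.9 ± 3.69 for TERF2 (SD, n = 3 each). TNKS followed with 16.7 ± 1.28, POT1 with 14.0 ± 4.08, TINF2 with 12.9 ± 1.05 and TERT with 1.00 ± 0.465. Neighbours in this order whose mean ± SD ranges overlapped were TNKS2 and TERF2IP, TERF2 and TNKS, TNKS and POT1, and POT1 and TINF2. DKC1 and ACD have no coding length for the counted transcript in GENCODE 44. Per kb of the whole deposited transcript, TERF1 had 53.5 ± 11.1, DKC1 46.6 ± 4.54 and ACD 3.11 ± 0.613 in the normoxic libraries, and TERT had the lowest level with 0.849 ± 0.393. By this length the ranges of TERF1 and DKC1 overlapped. In hypoxia TERF1 had 35.2 ± 3.87 and DKC1 43.0 ± 2.90 on the same scale. The authors left out reads of non-coding parts of mRNAs, so the whole length includes bases whose reads were not to be counted. For TERF1, 1257 of 3268 bases are coding, so its order against DKC1 can depend on the length used. The TERF1 level may also hold reads of pseudogenes, since 77.2% of its coding stretches of 25 bases occur in transcripts of other genes. The part of such reads in the order of levels was not tested.

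In GRCh38, the 10 genes lie on 7 chromosomes. TERF1 lies on chromosome 8 from 73008856 to 73048123 and TNKS on the same chromosome from 9555912 to 9782346. TERF2 (69355567 to 69408571), TERF2IP (75647773 to 75761872) and ACD (67657512 to 67660810) lie on chromosome 16. POT1 lies on chromosome 7 from 124822386 to 124929983, TINF2 on chromosome 14 from 24238286 to 24242663, TNKS2 on chromosome 10 from 91798426 to 91865475, TERT on chromosome 5 from 1253147 to 1295068 and DKC1 on chromosome X from 154762742 to 154777689. Exons of other genes overlap those of 5 members by 58 to 263 bases, on the other strand for TERF2IP (KARS1), ACD (CARMIL2), TINF2 and TERT. The counting is not stated to use strand, so reads in these short stretches could belong to either gene.

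Other genes of telomere biology were taken from a list of 41, of which 40 were in the table and 38 had enough counts to be tested. None passed an adjusted p of 0.05 by edgeR, DESeq2 (which gives none for some genes of low counts) or limma-voom, against 0.758% of all features by edgeR. At an unadjusted p under 0.05, edgeR had 2 of them lower and none higher, against 10.3% of all features in either direction. The median log2 fold change was -0.09, with 27 of 38 below 0. Without normoxia replicate 3, POLA1 was called lower (log2 change -0.66; edgeR, adjusted p = 0.0496).

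**Figure D5:**
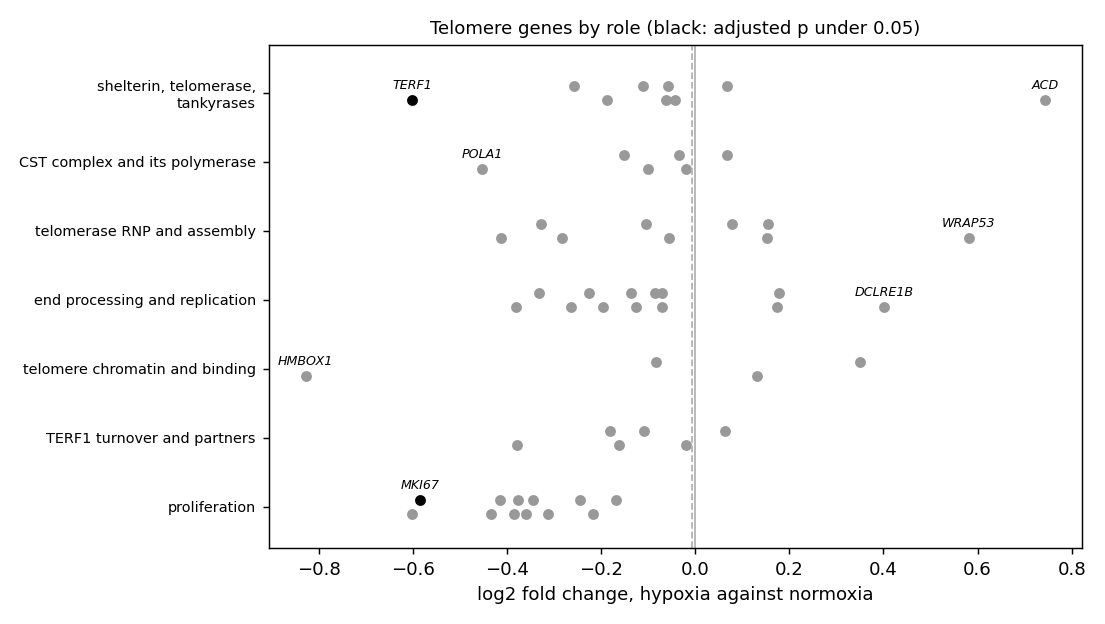
Fitted log2 fold change, hypoxia against normoxia (horizontal axis), of the 9 members tested, of the other telomere genes by role and of 12 proliferation genes, 1 point per gene. Black points are past an adjusted p of 0.05, and the dashed line is the median of all protein-coding features tested, -0.01. TERF1 and MKI67 are the black points.

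The CST complex and DNA polymerase α fill in the strand opposite the overhang. Of 6 tested, CTC1, its largest subunit, had 273 ± 41.6 normalized CPM at 21% O2 and 285 ± 23.4 at 2% O2 (SD, n = 3 each; log2 change of 0.07). PRIM1, the primase subunit, had a log2 change of -0.02 and STN1, a CST subunit, one of -0.15. POLA1, the catalytic subunit of the polymerase, had 94.9 ± 27.1 and 69.6 ± 12.5 normalized CPM, a log2 change of -0.45 (standard error 0.178; edgeR, adjusted p = 0.325).

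Of 9 tested genes of the telomerase particle and its assembly, WRAP53 (TCAB1), which takes telomerase to Cajal bodies, had the highest log2 fold change, 0.58 (standard error 0.474), on 22 counts in normoxia and 34 in hypoxia. SHQ1, the chaperone that hands DKC1 to the particle, had 0.15. NHP2, which binds beside DKC1, had 65.3 ± 6.25 and 52.1 ± 6.36 normalized CPM (SD, n = 3 each; log2 change of -0.33, standard error 0.164). RUVBL1, an ATPase of the assembly, had -0.41 (standard error 0.235).

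Of 13 tested genes of end processing and telomere replication, DCLRE1B (Apollo), the nuclease that TERF2 recruits, had a log2 change of 0.40 (standard error 0.385). RAD50, of the MRN complex that senses broken ends, had 197 ± 15.6 normalized CPM at 21% O2 and 224 ± 0.362 at 2% O2 (SD, n = 3 each), and its groups did not overlap (log2 change 0.18; edgeR, adjusted p = 0.594). WRN, the helicase lost in Werner syndrome, had 55.4 ± 8.51 and 46.1 ± 2.59 normalized CPM (SD, n = 3 each), likewise without overlap but lower in hypoxia (log2 change -0.26; edgeR, adjusted p = 0.646), and it was picked after its values were seen. Groups without overlap were found for 15.3% of all features. SLX4, a scaffold of nucleases, and FEN1, the flap endonuclease of lagging strands, had -0.38 and -0.33.

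HMBOX1, a protein that binds the double-stranded telomere repeat, had the lowest log2 fold change of the list. It had 23.3 ± 2.80 normalized CPM for normoxia and 13.1 ± 1.95 for hypoxia (SD, n = 3 each) without overlap, and its log2 change of -0.83 (standard error 0.275; edgeR, adjusted p = 0.174) did not pass the test. In the same group of 4, ATRX, the remodeler whose loss accompanies telomerase-independent lengthening, had -0.08 on 677 ± 23.4 and 638 ± 45.5 normalized CPM. Its partner DAXX, a histone chaperone, had 0.13 and NR2C2, a nuclear receptor, 0.35.

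Of 6 tested partners of TERF1, FBXO4, the ubiquitin ligase subunit that marks TERF1 for degradation, had a log2 change of -0.38 (standard error 0.294) and the nucleolar protein GNL3L, which stabilizes TERF1, one of -0.18 (standard error 0.173). NEK7, a kinase reported to stabilize TERF1, had 0.06, and GNL3 (nucleostemin), the paralog of GNL3L, -0.02. For these 4 the groups overlapped and none passed the test.

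Genes of proliferation are given beside TERF1 because the paper reports lower cell counts in hypoxia. Of 12 such genes tested, MKI67 was called lower in hypoxia and 11 were not past the threshold, against 0.162% of all features called lower. At an unadjusted p under 0.05 stood 5 of the 12, all lower, against 10.3% of all features in either direction. All 12 log2 fold changes were below 0, as were 51.0% of those of all features, and their median was -0.37. The groups did not overlap for MKI67 and overlapped for the other 11. MKI67, the Ki-67 antigen, had 2246, 2445 and 1885 normalized CPM at 21% O2 and 1373, 1325 and 1686 at 2% O2. TOP2A, the mitotic topoisomerase, stood at a log2 change of -0.38 and PCNA, the replication clamp, at -0.42 (edgeR, adjusted p = 0.166 and 0.603). Within normoxia TERF1 was lowest in replicate 2, the library in which MKI67, TOP2A and PCNA were highest. Within hypoxia TERF1 was lowest in replicate 3, where these 3 genes were again highest. The rest of the list was highest in the same libraries, except MCM2 and MCM5, which were highest in normoxia replicate 1 and hypoxia replicate 2. With 3 libraries per group, nothing is read from this order. The part of proliferation in the TERF1 difference was not tested.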

How the data were processed

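Total RNA of SW1736 cells was made into CATS small RNA libraries, from which the authors selected a narrow range of lengths. A level per kb is thus one of fragments in that range. The authors trimmed adapters, removed reads of structural small RNAs (rRNA, tRNA and the like), matched what was left to miRNAs first and to longer transcripts after them, and counted with eXpress. Deposited by the authors are raw counts for each miRNA and each coding transcript (1 per gene), and the transcript length. Other tables were not used here. Reads of pseudogenes and non-coding parts of mRNAs were left out by the authors.

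Both tables were joined, features with low counts removed with filterByExpr (minimum count of 10), and the remaining 11276 scaled by TMM and fitted by edgeR 4.0.16 (quasi-likelihood, robust, group as the only term) with Benjamini-Hochberg adjustment over all of them. DESeq2 1.42.0 and limma-voom (limma 3.58.1) were alternatives. The standard error is that of the fitted coefficient. Coordinates and coding lengths come from GENCODE 44 (GRCh38, the labels' build), matched by transcript identifier without version. PINX1 was not analysed here. No replicate pair agreed within sampling noise. The members and lists were chosen with earlier results of these data known. All 10 members are named, and of the other telomere genes those called and, per role, the highest and lowest pairs of log2 fold changes. SDs are over 3 libraries, and counting intervals cover counting error only.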

Additional observations from a re-analysis of the deposited data

How the results depend on the processing

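Of the 14 alternative fits, 7 of the 8 that keep all libraries called TERF1, as did 1 of the 6 that leave out 1 library. The other 8 members tested were called in none of their 112 alternative values, with 1 at an unadjusted p under 0.05 from edgeR (ACD, without hypoxia replicate 3). Of these values 3 could not have been called, since DESeq2 gave TINF2, POT1 and ACD no adjusted p. DESeq2 called 0 members, with 1 at an unadjusted p under 0.05, and 46 protein-coding features in all, 8 lower and 38 higher, against 84 (18 and 66). Without the filter on low counts 136 were called, 44 of them lower, and limma-voom called 11 lower. With 1 library left out, 29 to 119 features were called, 3 to 39 lower and 26 to 80 higher, 0 to 1 of them members and 0 to 1 of the wider telomere list, and the members' median log2 fold change was -0.17 to -0.041. Same-numbered libraries did not deviate together (correlations of -0.01, 0.00 and -0.09 across features). No pairing by number was seen, but 3 libraries per group cannot exclude one. With a replicate block 74 features were called, TERF1 kept its call with a log2 fold change of -0.59, and no member's call changed. Without the robust estimate, chosen after seeing the data, 82 were called. Scaling changed no member's call. Levels per kb depend on the length used. Counts under about 30 per library (TINF2, ACD and TERT) limit what could be detected.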
